A study of Mus musculus with 8 samples.

Results

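Interferon-stimulated genes were examined here as a named set of 39 mouse genes, chosen by symbol as textbook targets of the interferon pathway. The choice was made with earlier results of these data known, so shares of the set against all genes are description only. Each was read from a probe set annotated with that symbol alone and, where a gene had several such probe sets, from the one with the highest mean over the 8 arrays. In this way 37 of the 39 genes were matched, out of 19938 genes measured. Isg15 and Ifi44 had no probe set of their own and are not analysed here.

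The arrays hold RNA from 3134 cells, a mouse mammary line transformed from C127, which came from a mammary tumour of the RIII strain. All 4 groups carry A-fos, a dominant negative of the transcription factor AP-1, and the tetracycline regulator tTa that drives it, both stably integrated. The labels do not say whether the line is a single clone. All cells stood in charcoal-treated serum for 48 h and were then left untreated (0 h) or given 100 nM dexamethasone, a synthetic glucocorticoid, for 4 h. Each of the 4 groups had 2 arrays, crossing 0 h and 4 h with the tetracycline state in the sample titles (no tetracycline, or plus tetracycline). The recorded dose is 1 ug per ml, which the titles do not give. The treatment protocols give the opposite tetracycline state for all 8 samples. The titles therefore name the arms here (no-titled, plus-titled), with no statement on which made A-fos. The study asked how AP-1 bears on the glucocorticoid response, so the comparisons are the arm difference at each time, the dexamethasone response in each arm, and the difference of those responses.

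Interferons are secreted proteins that cells release on meeting viruses or misplaced nucleic acid. Type I interferon binds the receptor pair Ifnar1 and Ifnar2, whose kinases Jak1 and Tyk2 activate Stat2. Stat2 and Irf9 belong to the complex ISGF3, which binds the interferon-stimulated response element (ISRE) in the promoters of its targets. Interferon gamma acts through another element, the gamma activated sequence (GAS). Many of the targets are kept at a low basal level in unstimulated cells, and several of them, Stat2, Irf7 and Irf9 among them, are parts of the same pathway. Glucocorticoids, acting through their receptor, are known to dampen inflammatory gene expression.

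The promoters of these genes are shown first, because the ISRE is the element that ISGF3 binds in its targets. The set was not chosen by sequence, but textbook targets of interferon may be rich in the ISRE by that choice. RefSeq promoter windows on GRCm38.p6, of 250 bases before to 50 after each annotated start, were at hand for 28 of the 37 matched genes. They were searched on both strands for the ISRE written as GAAANNGAAA. At least 1 match lay in the windows of 11 of the 28 genes (39.3%), against 3.89% of the 15614 measured genes with a window. The GAS letters TTCNNNGAA matched in 10 of the 28 (35.7%, against 8.99%), and the AP-1 element TGANTCA in 6 (21.4%, against 8.08%). The glucocorticoid receptor element, as ACANNNTGT, matched in Oasl1 alone (3.57%, against 6.65%). Another of these motifs overlapped an ISRE match in the windows of Bst2 and Ifitm3, and a pair of ISRE matches overlapped in those of Oas1a and Bst2. A match describes letters only.

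The first 5 stretches below come from genes that were higher in the plus-titled arm, Ifit3 by a call that several settings ended. The last 3 come from genes that did not pass that comparison. The stretches show that both kinds carry the same letters. Capitals mark the ISRE letters on either strand, and each sequence is given 5′ to 3′ in the direction of its gene. Stat2 lies at chr10:128270248-128270315 (plus strand), Bst2 at chr8:71537557-71537632 (minus) and Ifit3 at chr19:34583343-34583446 (plus), all upstream of the start. The stretches of Ddx58, chr4:40239804-40239833 (minus), and Eif2ak2, chr17:78882535-78882564 (minus), reach past the annotated start into the first transcribed bases. Oas3 lies at chr5:120777695-120777764 (minus), Oas1a at chr5:120907526-120907575 (minus) and Rsad2 at chr12:26456533-26456602 (minus), upstream of the start.
Stat2: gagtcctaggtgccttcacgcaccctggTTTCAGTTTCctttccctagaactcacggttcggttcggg
Bst2: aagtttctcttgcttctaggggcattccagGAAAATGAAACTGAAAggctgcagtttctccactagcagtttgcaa
Ifit3: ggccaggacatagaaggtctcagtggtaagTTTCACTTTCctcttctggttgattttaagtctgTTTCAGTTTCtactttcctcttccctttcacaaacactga
Ddx58: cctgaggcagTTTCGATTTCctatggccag
Eif2ak2: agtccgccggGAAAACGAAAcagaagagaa
Oas3: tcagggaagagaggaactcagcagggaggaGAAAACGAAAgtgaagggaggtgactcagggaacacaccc
Oas1a: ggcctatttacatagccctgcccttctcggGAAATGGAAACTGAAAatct
Rsad2: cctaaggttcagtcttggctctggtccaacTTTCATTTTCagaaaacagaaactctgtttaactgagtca
In Oas1a and Bst2 a pair of ISRE matches overlaps by one GAAA, which makes a run of 3 GAAA repeats. Ifit3 has a pair that stands apart.

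The deposited values are log2 signals, normalized together so that the arrays have like distributions, and a difference of log2 values is a log2 fold change. Array medians over genes lay between 5.59 and 5.69. Replicates correlated across genes at 0.9932 to 0.9956. The plus-titled 0 h pair was the least alike, with 24 genes over 2-fold apart, against 4 to 11 in the other pairs. The labels do not state whether replicates came from separate cultures, so the tests rest on a spread between arrays that may be technical. Fkbp5, a known glucocorticoid target, rose by 3.05 and 3.32 with dexamethasone (no-titled, plus-titled). Markers of fibroblasts gave bright signals (6 of 7 above the median gene, with means up to 12.82), whereas 2 of 6 epithelial markers lay above it (means 4.39 to 5.86). Signals of different probe sets are not comparable as levels, so these values do not settle how epithelial the culture was. None of 8 leukocyte markers lay above the median gene, their summed log2 signal was 34.55 to 36.09 per array, and none was called between the arms by limma (over both times Cd68, at -0.22, had the smallest adjusted p, 0.184). In RNA from a whole culture, fewer cells with a transcript and less of it per cell cannot be told apart.

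A part of the interferon-stimulated genes was higher in the plus-titled arm, and none was called lower. At 0 h 13 of the 37 were higher and 0 lower, with 24 not passing, where 6.20% of all genes tested were higher and 3.18% lower. At 4 h 7 were higher, 0 lower and 30 did not pass, against 5.29% and 4.32% of all genes. Over both times together 16 of 37 (43.2%) were higher and 0 lower, against 11.0% and 7.74%. These calls are from limma at an adjusted p under 0.05 over all genes. An unadjusted p under 0.05 was seen in 23, 16 and 26 of the 37 in the 3 comparisons. No share of all genes was counted for that cut, so these counts have no background. The median difference of the 37 was 0.38 at 0 h, 0.20 at 4 h and 0.28 over both, where the medians of all genes were -0.02, -0.01 and -0.02. The middle 50% of all genes lay between -0.15 and 0.14 at 0 h and between -0.15 and 0.13 at 4 h.

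Markers of several cell types also differed between the arms over both times. Of 4 basal epithelial markers 2 were lower, Krt14 by the most (-1.40 ± 0.12, adjusted p = 3.38e-05). The other was Krt17 (-0.31 ± 0.09, called in 2 of 8 fits that left out an array). The summed log2 signal of the basal markers was 21.03 to 21.72 in no-titled arrays and 19.32 to 19.87 in plus-titled arrays, without overlap. Krt14 alone was 6.37 to 6.76 in no-titled arrays and 4.83 to 5.35 in plus-titled arrays. Krt5 and Trp63 were not called and their arrays overlapped between the arms, so the gap is not one of the whole list. Of 6 epithelial markers 1 was higher (Krt7, 0.68 ± 0.08). Of 7 fibroblast markers 2 were higher (Pdgfra, 0.73 ± 0.09, and Pdgfrb, 0.41 ± 0.09) and 2 lower (Col1a2, -0.68 ± 0.08, and Vim, -0.30 ± 0.07, called in 4 of 8 fits that left out an array). Their summed signal overlapped between the arms (58.51 to 59.35 and 58.10 to 59.88). Of 4 adipocyte markers Fabp4 was lower (-0.79 ± 0.11), and none of 4 endothelial markers was called. By limma Fabp4 was not called at 0 h (-0.22 ± 0.16, adjusted p = 0.482) and was lower at 4 h (-1.35 ± 0.16, adjusted p = 0.000772). Its dexamethasone response was 1.68 ± 0.16 in the no-titled arm (called) and 0.54 ± 0.16 in the plus-titled arm (not called). The difference of those responses was not called (adjusted p = 0.360). The part of these marker differences in the arm difference of the interferon-stimulated genes was not tested.

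The arm differences at 0 h and at 4 h share no arrays. Both were above 0 in 26 of the 37 genes (70.3%), against 31.1% of all genes, both were below 0 in 5, and 6 had opposite signs. Stat2, Irf7, Irf9, Ddx58, Samhd1 and Ifi27 were called higher at both times (6 of 37), as were 748 of all 19938 genes. Of these members, Ifi27 alone kept its calls at both times in every fit that left out an array. In 13 genes (35.1%) all 4 plus-titled arrays lay above all 4 no-titled arrays, as they did in 11.7% of all genes. These were Stat2, Irf7, Irf9, Bst2, Ddx58, Eif2ak2, Parp9, Trim25, Adar, Psmb9, Herc6, Ifi27 and Ifitm3. All plus-titled arrays were below in 0 of the 37, against 9.05% of all genes. By array, the median log2 signal of the 37 genes was 5.56 and 5.59 in the no-titled 0 h arrays and 5.94 and 5.96 in the plus-titled 0 h arrays. After dexamethasone it was 5.67 and 5.41 in no-titled arrays and 5.73 and 5.66 in plus-titled arrays. The medians were thus apart at 0 h and overlapped at 4 h.

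Calls were more frequent among genes with bright probe sets. Of the 19 members with a mean signal above the median gene (5.66), 13 were higher over both times, against 20.1% of all genes in that range. Of the 18 at or below it, 3 were higher, against 1.99%. In all, 7 of the 37 genes had signals in the dimmest 25% of genes.

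**Figure D1:**
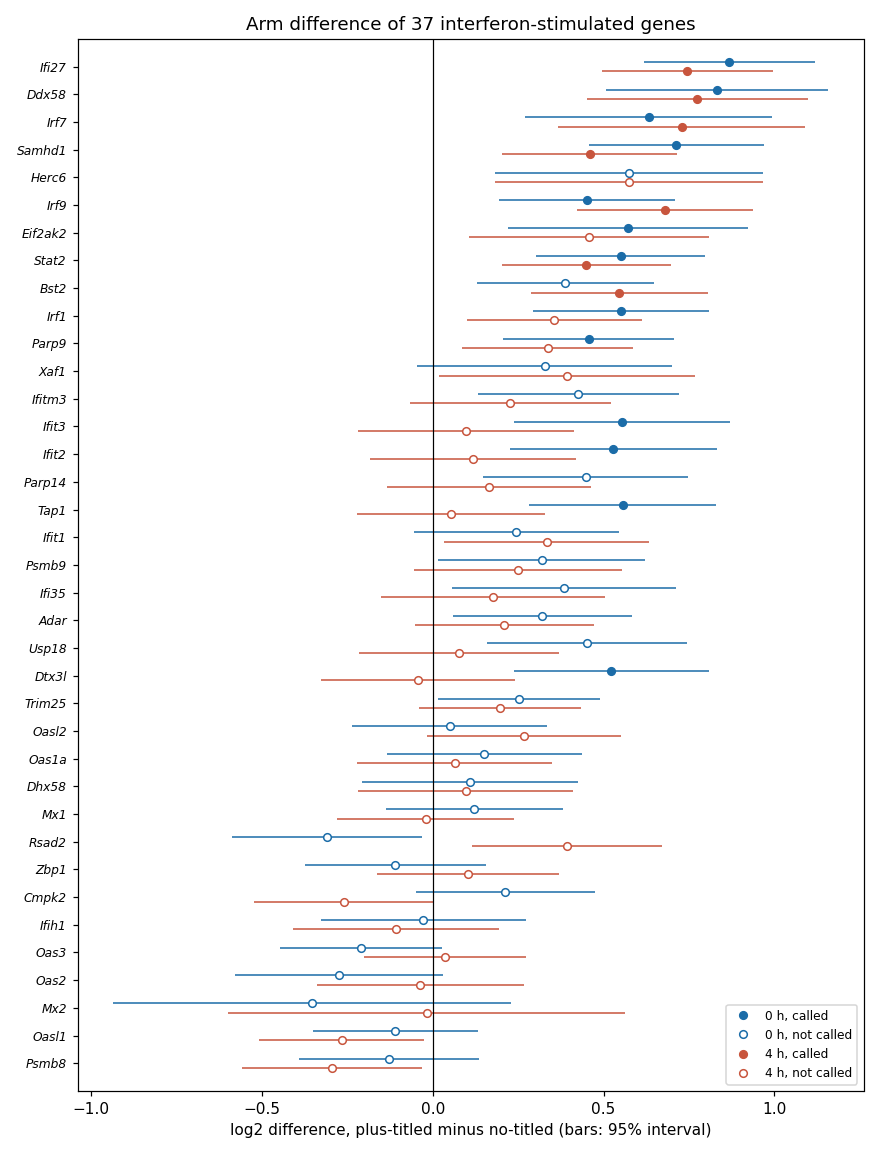
Arm difference of each of the 37 genes (plus-titled minus no-titled, log2, x axis) at 0 h (blue) and at 4 h of dexamethasone (red), with 95% intervals from limma; filled points were called at an adjusted p under 0.05 over all genes. The genes are ordered by the mean of both differences, from Ifi27 (0.81) to Psmb8 (-0.21), and 29 of 37 points lie right of 0 at each time.

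The 4 regulators of the set were all higher in the plus-titled arm over both times, Irf1 as read from its brighter probe set. Stat2 is the subunit of ISGF3 that carries its activation domain. Its log2 signal was 5.98 and 6.14 in the no-titled 0 h arrays, 6.34 in both no-titled 4 h arrays, 6.68 and 6.55 in the plus-titled 0 h arrays, and 6.74 and 6.84 in the plus-titled 4 h arrays. All plus-titled arrays were above all no-titled ones, by 0.55 ± 0.11 (log2, SE) at 0 h (adjusted p = 0.0125) and 0.45 ± 0.11 at 4 h (adjusted p = 0.0296). Irf9, the DNA-binding subunit of ISGF3, gave 5.47 and 5.59 at 0 h and 5.16 and 5.41 at 4 h in the no-titled arm. In the plus-titled arm it gave 5.996 and 5.963 at 0 h and 5.97 and 5.95 at 4 h. It too was higher in every plus-titled array, by 0.45 ± 0.12 at 0 h (adjusted p = 0.0365) and 0.68 ± 0.12 at 4 h (adjusted p = 0.00509).

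Irf7, the factor that amplifies type I interferon transcription, gave 5.08 and 5.25 in the no-titled arm at 0 h and 5.17 and 4.62 at 4 h. The plus-titled arrays gave 5.87 and 5.72 at 0 h and 5.61 and 5.64 at 4 h. The no-titled 4 h pair stood 0.55 apart, the widest gap between replicates among the regulators, and still lay below every plus-titled array. The difference was 0.63 ± 0.16 at 0 h (adjusted p = 0.0366) and 0.73 ± 0.16 at 4 h (adjusted p = 0.0185). Irf1, a factor induced by interferon gamma that drives antigen presentation genes, was higher by 0.55 ± 0.12 at 0 h (adjusted p = 0.0147) and not called at 4 h (0.36 ± 0.12, adjusted p = 0.0873). Its arrays overlapped between the arms, since it also fell with dexamethasone, as described below. Irf1 was the only member with more than 1 probe set. The dimmer one gave 5.50 and 5.93 at 0 h and 5.59 and 5.53 at 4 h in the no-titled arm. In the plus-titled arm it gave 5.60 and 5.63 at 0 h and 5.53 and 5.30 at 4 h, so its arms overlapped. With the mean of the probe sets, limma no longer called Irf1 at 0 h (adjusted p = 0.307) or over both times (adjusted p = 0.229).

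**Figure D2:**
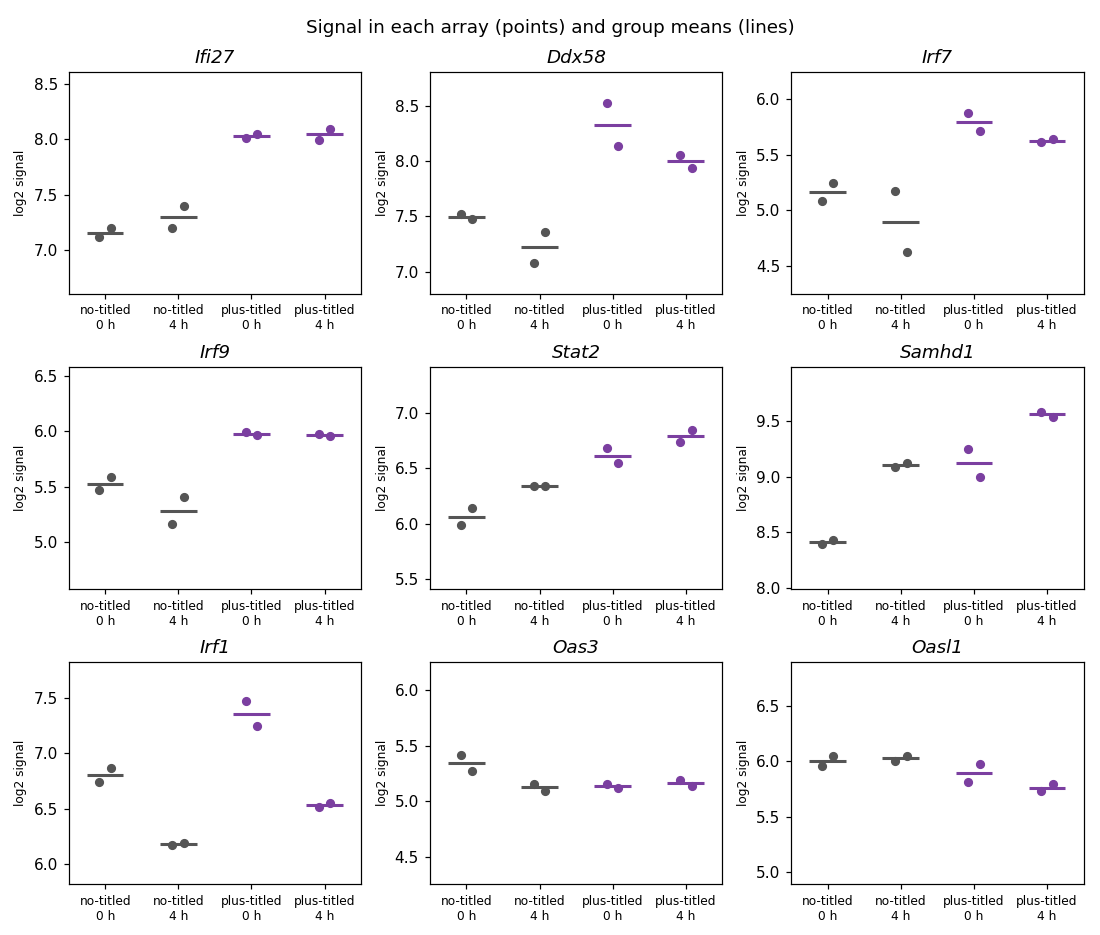
Log2 signal (y axis) of 9 genes in each array (points) with the group means (lines), for the no-titled (grey) and plus-titled (purple) arms at 0 h and 4 h of dexamethasone. Every panel spans the same number of log2 units. Plus-titled points lie above all no-titled points in Ifi27, Ddx58, Irf7, Irf9 and Stat2, Samhd1 and Irf1 move with both arm and dexamethasone, and Oas3 and Oasl1 were not called.

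Among sensors of nucleic acid and RNA enzymes, 2 of 7 were higher over both times and 5 did not pass. Ddx58 encodes RIG-I, the cytoplasmic sensor of viral RNA with triphosphate ends. It gave 7.52 and 7.47 at 0 h and 7.08 and 7.36 at 4 h in the no-titled arm, and 8.52 and 8.13 at 0 h and 8.06 and 7.93 at 4 h in the plus-titled arm. The arms did not overlap, and the difference was 1.78-fold at 0 h (log2 0.83 ± 0.15, adjusted p = 0.0063) and 1.71-fold at 4 h (0.77 ± 0.15, adjusted p = 0.00835). Eif2ak2 encodes PKR, the kinase that halts translation on binding double-stranded RNA. It gave 7.20 and 7.08 at 0 h and 7.12 and 7.02 at 4 h in the no-titled arm, and 7.96 and 7.47 at 0 h and 7.64 and 7.41 at 4 h in the plus-titled arm. It was higher by 0.57 ± 0.16 at 0 h (adjusted p = 0.0485) and 0.51 ± 0.11 over both times (adjusted p = 0.0087), and its plus-titled 0 h replicates stood well apart. The call at 0 h was lost in most of the fits that left out an array, with cyclic loess and with only the arrays compared.

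The related RNA helicases did not pass. Ifih1, which encodes the long double-stranded RNA sensor MDA5, differed by -0.07 ± 0.10 over both times (95% interval -0.28 to 0.14). Dhx58, which encodes the helicase LGP2, differed by 0.10 ± 0.10 (-0.12 to 0.33), and both signals were dim. Trim25, the ubiquitin ligase that acts on RIG-I, and Adar, the adenosine deaminase of double-stranded RNA, had all plus-titled arrays above all no-titled ones without passing (0.22, adjusted p = 0.0641, and 0.26, adjusted p = 0.0504). Zbp1, the sensor of Z-form nucleic acid, differed by -0.00 ± 0.09.

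Antiviral effectors were split. Samhd1, an enzyme that breaks down the deoxynucleotides viruses need, gave 8.39 and 8.43 at 0 h and 9.09 and 9.13 at 4 h in the no-titled arm, and 9.25 and 9.00 at 0 h and 9.59 and 9.54 at 4 h in the plus-titled arm. The arms did not overlap at either time, and the difference was 0.71 ± 0.12 at 0 h (adjusted p = 0.0042) and 0.46 ± 0.12 at 4 h (adjusted p = 0.0314). Bst2, which encodes tetherin, a membrane protein that holds budding virus at the cell surface, gave 6.88 and 6.80 at 0 h and 6.57 and 6.61 at 4 h in the no-titled arm. In the plus-titled arm it gave 7.10 and 7.35 at 0 h and 7.11 and 7.17 at 4 h. All plus-titled arrays were higher, by 0.55 ± 0.12 at 4 h (adjusted p = 0.0151), while the 0.39 ± 0.12 at 0 h did not pass (adjusted p = 0.0653).

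Ifitm3, a membrane protein that blocks virus fusion, gave 9.61 and 9.71 at 0 h and 9.75 and 9.84 at 4 h in the no-titled arm. It gave 9.92 and 10.25 at 0 h and 9.92 and 10.12 at 4 h in the plus-titled arm. The arms did not overlap and the difference was 0.33 ± 0.09 over both times (adjusted p = 0.0335), with neither time called alone. The other 4 effectors, the dynamin-like GTPases Mx1 and Mx2, the radical enzyme viperin of Rsad2 and its neighbour Cmpk2, did not pass at either time. Their differences over both times ran from -0.19 (Mx2) to 0.05 (Mx1), and their probe sets were dim.

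Ifi27, which encodes a small interferon-induced protein, had the largest arm difference of the 37 genes over both times. Its arrays gave 7.12 and 7.20 at 0 h and 7.20 and 7.40 at 4 h in the no-titled arm, and 8.01 and 8.04 at 0 h and 7.99 and 8.10 at 4 h in the plus-titled arm. No plus-titled array came near a no-titled one. The fold was 1.82 at 0 h (0.87 ± 0.11, adjusted p = 0.00145) and 1.68 at 4 h (0.75 ± 0.11, adjusted p = 0.0029). Xaf1, a proapoptotic interferon target, differed by 0.36 ± 0.12 over both times without passing (adjusted p = 0.0611), with plus-titled 0 h replicates at 4.82 and 5.42.

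Of the measured ISG15 system, which attaches the ubiquitin-like Isg15 to proteins and removes it, 1 of 2 genes was higher over both times. Herc6, the mouse ligase for Isg15, gave 6.72 and 6.73 at 0 h and 6.42 and 6.61 at 4 h in the no-titled arm, and 7.62 and 6.98 at 0 h and 7.16 and 7.02 at 4 h in the plus-titled arm. Its arms did not overlap (0.57 ± 0.13, adjusted p = 0.00875), though the plus-titled 0 h replicates were 0.64 apart and neither time passed alone. Usp18, which removes Isg15 and restrains the receptor, differed by 0.45 ± 0.13 at 0 h and 0.08 ± 0.13 at 4 h, and neither passed (adjusted p = 0.0603 and 0.817).

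The IFIT proteins bind foreign RNA, and 2 of their 3 genes were higher at 0 h and none at 4 h. Ifit2 gave 5.87 and 5.60 at 0 h and 6.17 and 5.86 at 4 h in the no-titled arm, and 6.22 and 6.30 at 0 h and 6.17 and 6.09 at 4 h in the plus-titled arm. Ifit3 gave 3.96 and 3.89 at 0 h and 4.27 and 4.21 at 4 h in the no-titled arm, and 4.68 and 4.28 at 0 h and 4.22 and 4.45 at 4 h in the plus-titled arm. In both genes the arms were apart at 0 h (0.53 ± 0.14, adjusted p = 0.0369, and 0.55 ± 0.14, adjusted p = 0.0366) and overlapped at 4 h (0.12 and 0.10). The probe set of Ifit3 was dim (mean 4.25). Both calls at 0 h were lost in most of the fits that left out an array. In those fits the 0 h difference ran from 0.39 to 0.67 in Ifit2 and from 0.36 to 0.75 in Ifit3. The 0 h call of Ifit3 was also lost with only the arrays compared. Ifit1 did not pass at either time (0.24 and 0.33).

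Parp9 and Dtx3l form a complex of an ADP-ribosyltransferase family member and a ubiquitin ligase, and both were higher at 0 h. Parp9 gave 6.13 and 6.19 at 0 h and 6.07 and 5.94 at 4 h in the no-titled arm, and 6.71 and 6.52 at 0 h and 6.37 and 6.32 at 4 h in the plus-titled arm. Dtx3l gave 5.72 and 5.68 at 0 h and 5.75 and 5.80 at 4 h in the no-titled arm, and 6.37 and 6.08 at 0 h and 5.84 and 5.62 at 4 h in the plus-titled arm. Parp9 kept its arms apart at both times (0.46 ± 0.11 at 0 h, adjusted p = 0.0312; 0.34 ± 0.11 at 4 h, adjusted p = 0.0977). The arms of Dtx3l were apart at 0 h (0.52 ± 0.13, adjusted p = 0.0301) and overlapped at 4 h (-0.04). Parp14, another ADP-ribosyltransferase, gave 5.56 and 5.22 at 0 h and 5.15 and 5.28 at 4 h in the no-titled arm, and 5.94 and 5.73 at 0 h and 5.40 and 5.36 at 4 h in the plus-titled arm. It passed over both times (0.31 ± 0.10, adjusted p = 0.0483) and at neither alone.

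Of 3 genes of antigen processing, Tap1 alone was called. It encodes a subunit of the peptide transporter that loads MHC class I, and gave 7.15 and 7.18 at 0 h and 7.41 and 7.52 at 4 h in the no-titled arm. In the plus-titled arm it gave 7.57 and 7.88 at 0 h and 7.50 and 7.53 at 4 h. The arms were apart at 0 h (0.56 ± 0.12, adjusted p = 0.0196) and overlapped at 4 h (0.05 ± 0.12). The immunoproteasome subunits Psmb9 and Psmb8 differed over both times by 0.28 ± 0.10 (adjusted p = 0.0686) and -0.21 ± 0.08 (adjusted p = 0.116), on opposite sides of 0.

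None of the 5 genes of the OAS family, which make the short oligoadenylates that switch on RNase L or resemble those enzymes, was called in either direction at either time. Over both times they ran from -0.19 ± 0.08 in Oasl1 (adjusted p = 0.128) through Oas2 (-0.16), Oas3 (-0.09) and Oas1a (0.11) to 0.16 ± 0.09 in Oasl2 (adjusted p = 0.282). Their 95% intervals reached from -0.37 (Oas2) to 0.36 (Oasl2). Returning to the promoters, of the 11 genes with an ISRE match 6 were higher over both times (Ifit3 among them, a call that several settings ended, as given below) and of the 17 without one 7 were, with medians of 0.33 and 0.28.

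**Figure D3:**
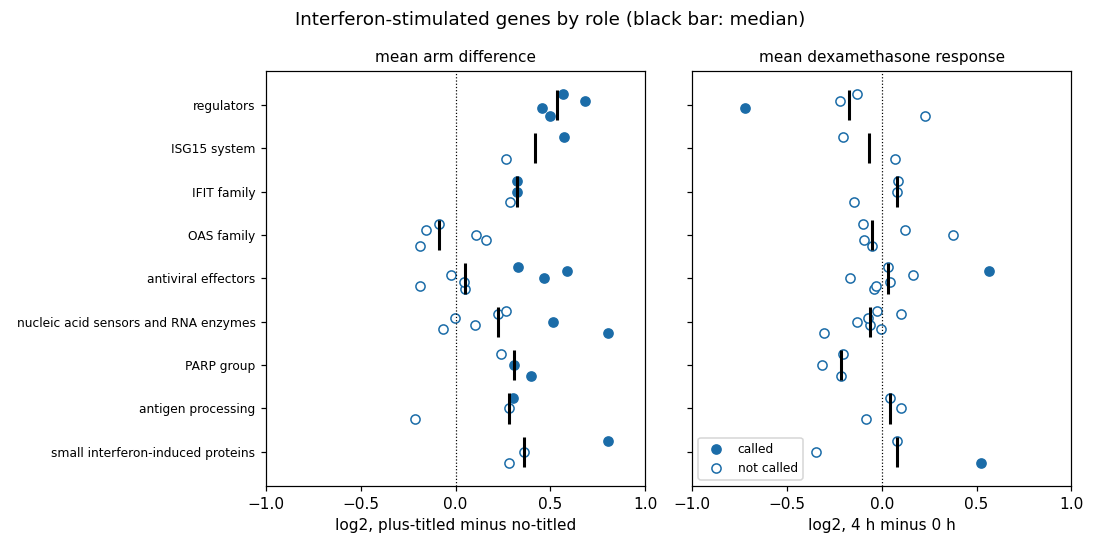
Mean arm difference over both times (left panel) and mean dexamethasone response over both arms (right panel), on the log2 scale, for each gene (points) by role, with the median of the role (black bar) and called genes filled. All 4 regulators are filled on the left, the OAS family straddles 0 with no filled point, and 3 genes are filled on the right.

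Several calls were lost when 1 array was left out. At 0 h, Ddx58, Samhd1 and Ifi27 were called in each of the 8 fits that left out 1 array, and the count of called members was 3 without no-titled 0 h replicate 1, 5 without replicate 2 of that group, and 7 without plus-titled 0 h replicate 1. At 4 h, Ifi27 was called in each of those fits, and the count was 2 without replicate 1 of either 4 h group and 3 without replicate 2 of either. Over both times, Stat2, Irf1, Irf7, Irf9, Bst2, Ddx58, Eif2ak2, Parp9, Samhd1, Herc6 and Ifi27 were called in all 8, with adjusted p of at most 0.0366. The calls of Ifit2, Ifit3, Parp14 and Ifitm3 held in 2 of the 8 fits each and that of Tap1 in 1, with adjusted p up to 0.157, 0.161, 0.189, 0.121 and 0.116. The call of Ifit3 was also lost with median centring and with trend and robust variance.

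Few genes were called for dexamethasone, in this set and among all genes alike. In the no-titled arm 1 of 37 rose and 1 fell, where 1.03% of all genes rose and 0.401% fell. In the plus-titled arm 0 rose and 1 fell, against 0.823% and 0.281% of all genes. The median response of the 37 was 0.00 for the no-titled arm and -0.08 for the plus-titled arm, where all genes had medians of 0.01 and -0.01. In each arm 9 of the 37 had an unadjusted p under 0.05, again without a count over all genes. The responses of the arms share no arrays, and 8 genes (21.6%) were above 0 in both, 13 (35.1%) below 0 in both and 16 (43.2%) had opposite signs. Over all genes these shares were 28.6%, 28.5% and 42.9%. Averaged over the arms, 2 rose and 1 fell, against 1.73% and 1.23% of all genes. These responses share arrays with the arm differences above.

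Irf1 was the member that fell. At 0 h it gave 6.74 and 6.87 in no-titled arrays and 7.47 and 7.24 in plus-titled arrays. At 4 h it gave 6.17 and 6.19 in no-titled arrays and 6.52 and 6.56 in plus-titled arrays. Within each arm both treated arrays lay below both untreated ones. The change was -0.63 ± 0.12 in the no-titled arm (1.54-fold lower, adjusted p = 0.023) and -0.82 ± 0.12 in the plus-titled arm (1.77-fold lower, adjusted p = 0.00568). Over both arms it was -0.72 ± 0.08 (adjusted p = 0.000519), called in all 8 fits that left out an array. The single-arm calls were lost without any 1 of the 4 no-titled arrays (adjusted p up to 0.241), and without plus-titled 0 h replicate 1 or either plus-titled 4 h array (adjusted p up to 0.0583). With the mean of the probe sets of Irf1 both were lost too (adjusted p = 0.232 no-titled and 0.0969 plus-titled). The call over both arms held with that mean.

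Samhd1 rose. Its signals, given above, increased by 0.69 ± 0.12 in the no-titled arm (1.62-fold, adjusted p = 0.0121) and by 0.57 ± 0.08 over both arms (adjusted p = 0.00307). The 0.44 ± 0.12 in the plus-titled arm did not pass (adjusted p = 0.145), though both treated arrays lay above both untreated ones. The no-titled call was lost without any 1 of that arm's 4 arrays (adjusted p up to 0.127), and the call over both arms held in all 8 such fits. Ifi35, a leucine zipper protein of the interferon response, gave 6.18 and 6.66 at 0 h and 7.002 and 7.101 at 4 h in the no-titled arm. In the plus-titled arm it gave 6.87 and 6.75 at 0 h and 7.25 and 7.21 at 4 h. Treated arrays were higher in each arm, and the rise of 0.52 ± 0.10 over both arms passed (adjusted p = 0.0219), in 1 of the 8 fits that left out an array (adjusted p up to 0.0881).

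The other regulators did not pass. Averaged over the arms, the 4 regulators had a median response of -0.17, with Irf1 the only one called, and the signal of Ddx58 was -0.30 ± 0.10 (adjusted p = 0.207). Oas1a, whose arm difference did not pass, had the next largest mean response after the called genes (0.38 ± 0.09, adjusted p = 0.0579).

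**Figure D4:**
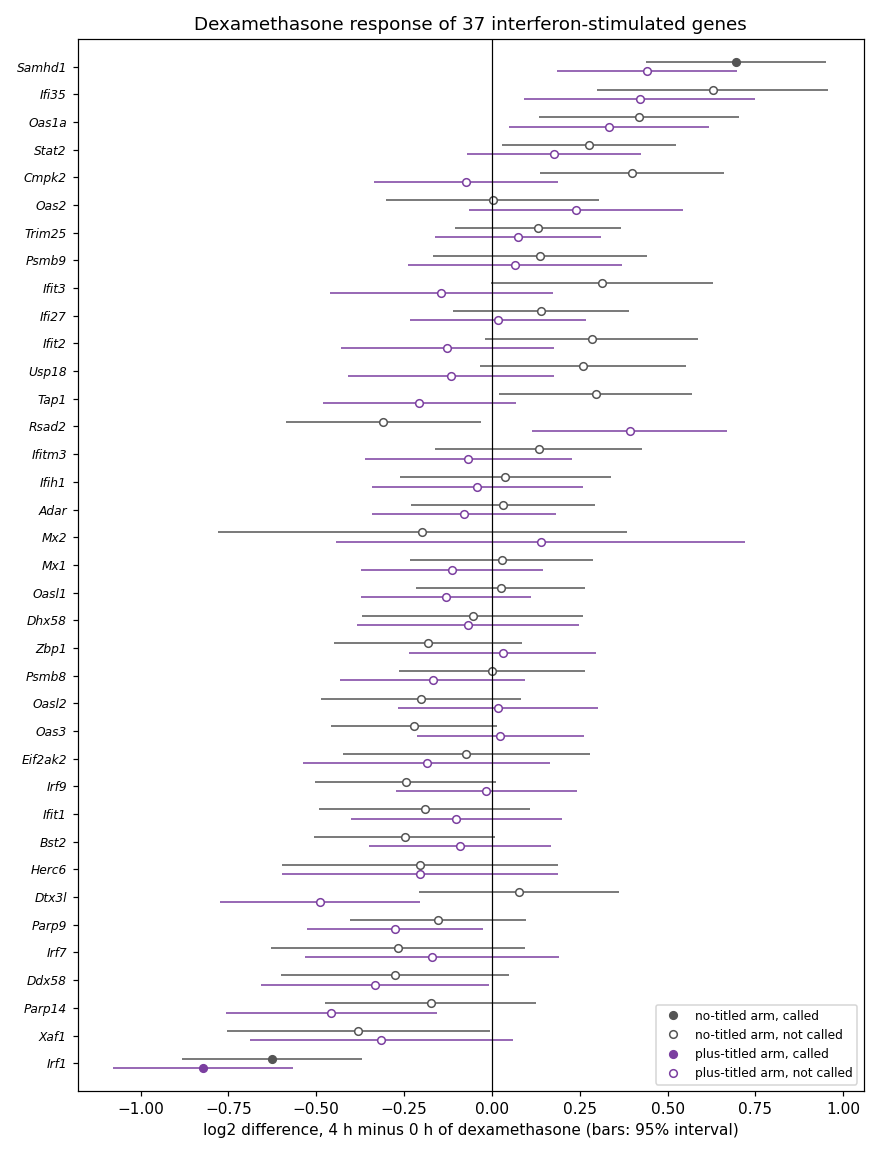
Dexamethasone response of each of the 37 genes (4 h minus 0 h, log2, x axis) for no-titled (grey) and plus-titled (purple) arrays, with 95% intervals from limma; filled points were called at an adjusted p under 0.05 over all genes. Irf1 is filled in both arms at the low end, Samhd1 is filled in the no-titled arm at the high end, and Rsad2 lies on opposite sides of 0 in the arms.

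No member's response differed between the arms at the threshold. By limma 0 of 37 were called, against 0.00502% of all genes (1 gene). An unadjusted p under 0.05, also not counted over all genes, was seen in 5 of the 37. Rsad2 had the largest difference of responses, 0.70 ± 0.18 (adjusted p = 0.587). It gave 4.50 and 4.47 at 0 h and 4.20 and 4.15 at 4 h in the no-titled arm, and 4.05 and 4.30 at 0 h and 4.69 and 4.45 at 4 h in the plus-titled arm. The treated arrays were thus below the untreated ones in one arm and above them in the other, at dim signals. Dtx3l (-0.57 ± 0.18, adjusted p = 0.802) and Tap1 (-0.50 ± 0.18, adjusted p = 0.878) came next. Of the 37 differences 26 were below 0 and 11 (29.7%) above it, where 46.7% of all genes were above. That count and the smaller arm difference at 4 h than at 0 h are the same quantity, seen from the other side.

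The rest of the pathway was read from lists of genes by role. None of 7 ligands, Ifnb1 among them, was called in any comparison, and Ifnb1 lay between 3.55 and 4.19 in all arrays. For the lists that follow, 11.0% of all genes were higher and 7.74% lower over both times. Of 9 receptors and kinases, 3 were higher and 1 was lower. Ifngr2, the signalling chain of the interferon gamma receptor, was higher by 0.71 ± 0.08 (adjusted p = 0.00027), Il10rb, shared by the interferon lambda receptor, by 0.59 ± 0.09, and Ifnar2 by 0.33 ± 0.08. Jak2, the kinase of the gamma receptor, was lower (-0.37 ± 0.09, adjusted p = 0.0169). The calls of Ifnar2 and Jak2 were lost without replicate 1 of either no-titled group or plus-titled 4 h replicate 2 (adjusted p up to 0.0654 and 0.0712).

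Of 5 other signal transducers and factors, Stat3 alone was called. Stat3, the factor of interleukin 6 family signals, gave 7.73 in both no-titled 0 h arrays and 7.81 and 7.88 at 4 h, and 9.00 and 8.82 at 0 h and 8.90 and 8.94 at 4 h in the plus-titled arm. The arms stood more than 2-fold apart (1.13 ± 0.08, adjusted p = 1.18e-05). Of 10 genes that lead to interferon induction, Sting1, the adaptor of cytosolic DNA sensing, was called. It gave 7.73 and 7.89 at 0 h and 7.54 and 7.79 at 4 h in the no-titled arm, and 9.07 and 9.24 at 0 h and 8.62 and 8.80 at 4 h in the plus-titled arm. Sting1 was higher by 1.34 ± 0.13 at 0 h (adjusted p = 0.000384) and 1.04 ± 0.13 at 4 h (adjusted p = 0.00107), more than any of the 37 members.

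Of 8 MHC class I genes, 4 were higher and 0 lower over both times, in all 8 fits that left out an array. These were Tapbp (tapasin, 0.71 ± 0.09 over both times), B2m (the light chain of class I, 0.66 ± 0.08), Psme1 (a proteasome activator, 0.54 ± 0.07) and Erap1 (the peptide-trimming aminopeptidase, 0.51 ± 0.08). The class I heavy-chain genes H2-K1 and H2-D1 were on the list but not measured, so these counts say nothing on them. B2m lay between 10.90 and 11.07 in the no-titled arrays and between 11.54 and 11.79 in the plus-titled ones. The same 4 genes were called at each time alone, of which B2m at 0 h held in all 8 such fits and the others were lost in some (adjusted p up to 0.191, Erap1 at 4 h). Among 42 other interferon-induced genes, 10 were higher and 5 lower over both times, where 11.0% and 7.74% of all genes were. Trim30a, which encodes a TRIM protein (0.83 ± 0.11), the Isg15-conjugating enzyme Ube2l6 (0.77 ± 0.09), Lgals9 (galectin 9, 0.76 ± 0.08) and the GTPase Irgm1 (0.58 ± 0.10) were highest. Isg20, an exonuclease, was the lowest (-0.57 ± 0.08, adjusted p = 0.000837, called in all 8 fits that left out an array). The other 4 lower genes, named after their values were seen, were Tor3a (-0.33), Pml (-0.30), Ccl5 (-0.27) and Phf11d (-0.27), each lost in at least 2 of those fits (adjusted p up to 0.0970, 0.0632, 0.130 and 0.170).

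Of 8 inhibitors of the pathway, 1 was higher and 1 lower between the arms over both times. Pias1, which restrains STAT factors, was higher by 0.61 ± 0.07 (adjusted p = 0.000298). The lower one was the Irf2-binding corepressor Irf2bp2 (-0.27 ± 0.08, adjusted p = 0.0402, a call that held in 1 of 8 fits without an array, with adjusted p up to 0.157). Dexamethasone raised both, Irf2bp2 by 0.92 ± 0.12 (no-titled) and 0.87 ± 0.12 (plus-titled, adjusted p = 0.0521 without plus-titled 4 h replicate 2) and Pias1 by 0.51 ± 0.07 over both arms (adjusted p = 0.00333). Irf2bp2 gave 7.90 and 7.77 before and 8.86 and 8.65 after the hormone in the no-titled arm, a larger rise than that of any of the 37 members. Dexamethasone also raised Ifngr1 (0.45 ± 0.08 over both arms, adjusted p = 0.0129), lost without no-titled 0 h replicate 1, no-titled 4 h replicate 2 or plus-titled 4 h replicate 2 (adjusted p up to 0.0727), and Isg20 (0.55 ± 0.08, adjusted p = 0.00403). None of the other measured receptors, transducers, inducers, ligands or class I genes on these lists was called for dexamethasone.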

How the data were processed

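Expression was measured on 8 Affymetrix arrays of total RNA, 2 in each of 4 groups set by the sample titles. The deposited table holds log2 signals made by the authors with Affymetrix Expression Console and RMA, per the submitters' processing notes, for 28888 probe sets. The sources used here give no version of either. RMA forces like distributions on all arrays, which hides a shift common to most genes and can shrink folds of dim ones. Probe sets were named from the platform annotation: 21789 had 1 symbol, 1621 several and 5478 none. Of several probe sets of a gene the one with the highest mean signal was kept, giving 19938 genes.

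Tests across genes used R 4.3.3 with limma 3.58.1 (functions lmFit and eBayes), with 4 group means and all 8 arrays in a single model, 2-sided, adjusted by Benjamini-Hochberg over all genes and called under 0.05. Contrasts (7) were dexamethasone responses per arm and averaged, the arm difference at each time and averaged, and the difference of the responses. The model had 4 residual and 6.64 prior degrees of freedom. The members and lists were chosen with earlier results of these data known. Every member called in any contrast and up to 3 with the largest change in each were named with their arrays, and up to 4 called genes of each other list. The number of arrays limits the precision. The procedure was tested on simulated data. Alternatives were trend and robust variance, only the arrays compared, a replicate block, a filter on the dimmest 25% of genes, median centring, cyclic loess, the mean of a gene's probe sets, and each array left out in turn. Same-numbered arrays did not pair (correlations of deviations -0.0191 to 0.134). Promoters came from RefSeq, GRCm38.p6; no probe positions were used.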

Additional observations from a re-analysis of the deposited data

How the results depend on the processing

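The medians of the 37 genes moved by less than the spread between replicates in every alternative run, and no called gene changed direction in one. Counts of called members moved more. With only the arrays compared, 8 were called for the arm difference at 0 h in place of 13. With the mean of a gene's probe sets, 1 was called for dexamethasone in the no-titled arm in place of 2, and 0 in the plus-titled arm in place of 1. With trend and robust variance, 2 were called in the plus-titled arm. With 1 array left out, the counts ranged from 0 to 2 (no-titled response), 0 to 1 (plus-titled response), 3 to 11 (arm difference at 0 h), 2 to 10 (arm difference at 4 h), 11 to 15 (mean arm difference) and 2 to 3 (mean response). The replicate block gave 14 and 8 for the arm differences at 0 h and 4 h in place of 13 and 7, and it changed no count by over 1.5 times. It ended the call of Ifit3 over both times, as median centring and trend and robust variance did (adjusted p up to 0.0574). The numbers did not pair the samples. For named single genes, values of called genes kept the call in 482 cases and lost it in 127, and those of genes not called stayed so in 84 and gained a call in 3. Calls were rarer among dim probe sets.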
